A study of Mus musculus with 18 samples.

Results

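Long intergenic noncoding RNAs (lincRNAs) were followed as mouse fetal liver progenitors went from expansion into erythroid differentiation with PCBP1 or PCBP2 knocked down. The members are the genes with transcripts annotated as lincRNA in GENCODE M21, leaving out the small nucleolar RNA host genes named Snhg and Gas5. A gene was kept when its lincRNA transcripts held at least 10 estimated reads in at least 3 of the 18 libraries. The rule kept 791 genes, with 1307 lincRNA transcripts, of the 46167 genes in the tables. Of the 3414 lincRNA genes considered, 2623 fell below that threshold, and 1348 of those had no read in any library. Just inside the threshold were Gm44066, Gm43690 and Gm20109, each with 10.0 reads in the library that ranked 3 for reads of that gene. Just outside were 1010001B22Rik with 9.97 reads, Gm26831 with 9.77 and Gm28625 with 9.65. The expression filter of the test kept 762 of the 791 members, and none of the other 29 exceeded 1.02 CPM in any library (CPM are read counts scaled to a common library size, not to gene length).

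LincRNAs are transcribed by RNA polymerase II and are usually capped, spliced and polyadenylated like mRNAs, but carry no long open reading frame. Some act where they are made, on the neighbouring gene or chromosome, some organise nuclear bodies, and others are the precursors of microRNAs. During red cell formation many lincRNAs are switched on at loci bound by the erythroid transcription factors GATA1, TAL1 and KLF1. PCBP1 and PCBP2 are RNA-binding proteins of the poly(C)-binding family, which bind single-stranded stretches rich in cytosine and act in splicing, RNA stability and translation.

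The cells came from fetal livers of CD-1 embryos at E14.5, enriched for hematopoietic progenitors with a magnetic kit to which an antibody against CD71 had been added. Every culture, controls included, was transduced with the retroviral vector MSCV-PIG, which carries a short hairpin RNA together with puromycin resistance and GFP, and was grown with dexamethasone, erythropoietin and stem cell factor. Day 0 is the end of that expansion culture and Day 2 is after 2 more days in differentiation medium with erythropoietin. Each of the 6 groups (control, PCBP1 knockdown and PCBP2 knockdown on each day) has 3 libraries. The knockdown libraries are labelled by hairpin (SH1, SH3 and SH4). On each day SCR-1 and SCR-2 carry a scrambled control hairpin, and the labels do not say whether it is the same one, while LUC-1 carries a hairpin against luciferase. The labels name no separate culture or litter for each sample, so a p-value here measures only how these samples vary, which may be technical.

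The libraries held 26949544 to 53784444 estimated reads, of which 0.823% to 1.47% were on the lincRNA members. Pcbp1 was at 236 to 249 TPM (abundance per transcript length, as a share of its library) in the Day 0 controls and 19.1 to 76.5 in its knockdown, highest with SH3, and at 76.1 to 86.9 against 6.24 to 22.1 TPM at Day 2. Pcbp2 was at 221 to 223 against 54.1 to 55.1 TPM at Day 0 and 41.8 to 49.2 against 8.51 to 11.1 at Day 2. Markers of red cell maturation summed to 2090 to 2750 CPM at Day 0 and 223000 to 399000 at Day 2, and 9 of 9 tested were higher in the control. Progenitor markers summed to 509 to 612 CPM at Day 0 and 31 to 40.7 in the Day 2 controls, with 5 of 6 lower. Gm42418 and Gm26917, annotated lincRNA loci that overlap ribosomal RNA sequence, took 34.6% to 63.7% of all member reads at Day 0 and 10.8% to 47.8% at Day 2. The highest Day 2 share, 47.8%, was in the LUC-1 control, against 20.7% and 21.3% in the scrambled controls. They are described apart from the other members.

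Several members are the primary transcripts of microRNAs, and 18 members contain 32 annotated hairpins on their own strand. The mature sequences below show what the host transcripts that moved with differentiation carry, with the seed (bases 2 to 8) in capitals. They are RefSeq annotations on GRCm38.p6. The mature microRNAs themselves were not measured. Mir142hg on chromosome 11 carries both arms of miR-142a, and its 5p arm lies at chr11:87756867-87756887 on the plus strand.
mmu-miR-142a-5p: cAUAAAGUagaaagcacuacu
mmu-miR-142a-3p: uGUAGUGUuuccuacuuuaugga
Mir17hg on chromosome 14 carries the miR-17-92 cluster. Its products fall into seed families, with miR-17-5p and miR-20a-5p sharing 1 seed, and miR-19a-3p and miR-19b-3p sharing another.
mmu-miR-17-5p: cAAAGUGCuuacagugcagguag
mmu-miR-20a-5p: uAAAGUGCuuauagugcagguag
mmu-miR-18a-5p: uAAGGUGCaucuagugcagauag
mmu-miR-19a-3p: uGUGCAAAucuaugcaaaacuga
mmu-miR-19b-3p: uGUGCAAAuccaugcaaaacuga
mmu-miR-92a-3p: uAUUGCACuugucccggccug
Dleu2, also on chromosome 14, carries miR-16 at chr14:61631936-61631957 on the minus strand.
mmu-miR-16-5p: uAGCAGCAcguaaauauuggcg

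The knocked-down proteins bind C-rich RNA, so the stretch of 90 bases with the most CCC is shown for 4 members. All 4 fell in the PCBP1 knockdown, H19 at Day 0 and Bloodlinc, 2700038G22Rik and Gm13073 at Day 2, and no riser is shown. The H19 call did not hold without some single libraries or under a correction for GC content. Runs of 3 or more C are in capitals. The stretches are the transcript strand on GRCm38, read from the annotated transcripts. Nothing in these data shows a protein bound there. Each stretch is the richest of its transcript. Whole transcripts held 19.7 CCC per kb for H19, 13.3 for Bloodlinc, 25.5 for 2700038G22Rik and 22.6 for Gm13073. The median over all members was 14.7. H19 (bases 1757 to 1846 of 2286) is at chr7:142575969-142576058, Bloodlinc (338 to 427 of 679) at chr11:102375801-102375890 and Gm13073 (301 to 390 of 486) at chr4:149780120-149780209, all on the minus strand. The stretch of 2700038G22Rik (104 to 193 of 1375) is at chr5:23853767-23853856 on the plus strand, and holds an unbroken run of C.
H19: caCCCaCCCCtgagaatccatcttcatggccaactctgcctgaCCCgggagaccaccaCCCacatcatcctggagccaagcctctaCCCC
Bloodlinc: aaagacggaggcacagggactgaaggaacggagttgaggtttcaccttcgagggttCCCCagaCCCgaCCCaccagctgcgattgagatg
2700038G22Rik: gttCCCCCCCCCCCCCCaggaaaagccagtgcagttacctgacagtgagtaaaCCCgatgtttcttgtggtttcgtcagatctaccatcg
Gm13073: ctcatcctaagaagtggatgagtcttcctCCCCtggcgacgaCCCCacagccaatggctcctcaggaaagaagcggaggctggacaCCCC

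As a class the lincRNAs were expressed at low levels. The median of the members' mean TPM was 0.733, with quartiles of 0.28 and 2.04, against a median of 8.51 for the 13589 tested protein-coding genes. A mean of at least 1 TPM was reached by 331 members, at least 10 by 67 and at least 100 by 13. The 10 highest, which include the rRNA-overlapping locus Gm42418, held 65.4% of all lincRNA TPM, and the share without that locus was not computed. Those 10, in order of mean TPM, were Gm42418 (2779), Gm29562 (537), AI662270 (330), Neat1 (312), 1810058I24Rik (292), Mir142hg (280), 1810026B05Rik (273), Malat1 (256.2), AA465934 (183) and Gm26619 (126). Of these, 96.3% of the 31-mers of Gm42418 and 87% of those of Gm29562 also occur in other annotated genes, so their reads may be split with near copies. Over all members, 76 share at least 50% of their 31-mers with another gene and 549 share under 10%.

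From Day 0 to Day 2 most lincRNAs rose relative to other genes. In the control, 502 of the 762 tested members (65.9%) were called higher and 104 (13.6%) lower, where 40.4% of all 17500 tested genes were called higher and 42.4% lower (edgeR quasi-likelihood test, Benjamini-Hochberg adjusted p under 0.05). In either direction 606 members were called in the control, 599 in the PCBP1 knockdown and 606 in the PCBP2 knockdown, where 82.8%, 82% and 83% of all genes were. The median lincRNA log2 change was 1.71, against −0.05 over all genes. With PCBP1 knocked down 498 rose and 101 fell (40.3% and 41.7% of all genes), with a median of 1.65, and with PCBP2 knocked down 510 rose and 96 fell (40.9% and 42.1%), with a median of 1.83. In the control 593 of the 762 (77.8%) had groups that did not overlap, against 83.2% of all genes. With PCBP1 and with PCBP2 knocked down these were 596 (83.3% of all genes) and 617 (84.6%).

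**Figure D1:**
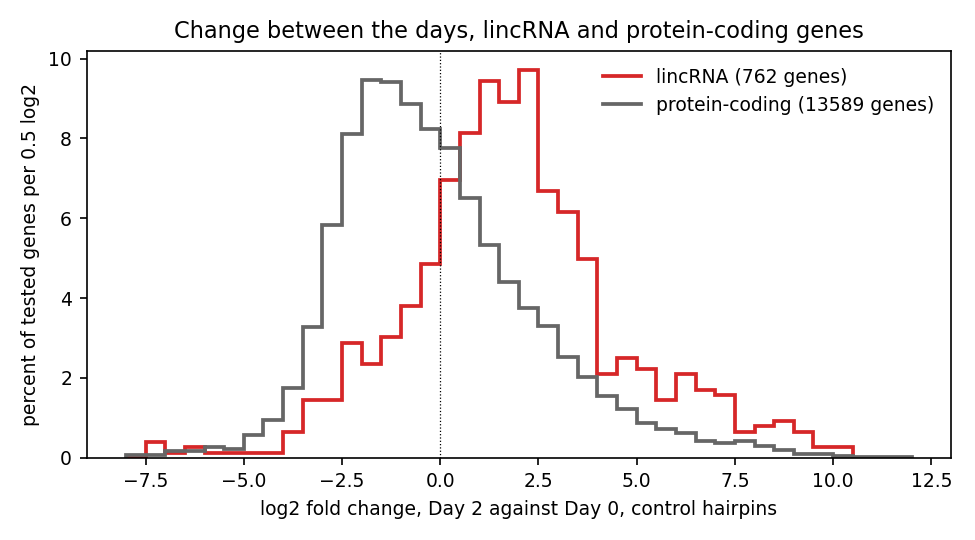
Share of tested genes (percent, vertical axis) in each 0.5-wide bin of log2 change from Day 0 to Day 2 in the control (horizontal axis), for 762 lincRNA members and 13589 protein-coding genes. The lincRNA histogram sits to the right, with a median of 1.71, on TMM scaling; scaling to library totals moves the median of all genes by −1.63 on the log2 scale.

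The share that rose was above that of protein-coding genes in each of 3 ranges of expression. Among members with an average log2 CPM under 0, 61.9% rose, against 44.8% of protein-coding genes in the same range. Between 0 and 2 the shares were 70.6% and 30.1%, and at 2 or more they were 73.2% and 33.3%. Annotated antisense genes showed a like split, with 62.6% called higher and 13.8% lower, and pseudogenes 41.4% and 23.9%.

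The size of these rises depends on the scale. Scaling to library totals in place of TMM moved the median log2 change of all genes by −1.63 in the control, −1.43 in the PCBP1 knockdown and −1.42 in the PCBP2 knockdown. On library totals the lincRNAs split 270 higher and 252 lower in the control, 294 and 227 with PCBP1 and 322 and 216 with PCBP2 knocked down, where 3554 of all genes were called higher and 11346 lower in the control. Of the 502 lincRNAs that rose on TMM scaling, 390 were still higher and 270 still called, and all 104 that fell were still lower and still called. The lincRNA median on totals was 0.0846 in the control. A share of all reads is again a scale of library totals. On it the members other than the rRNA-overlapping loci held 0.516% to 0.614% at Day 0. At Day 2 they held 0.777% to 0.926% in the control, 0.922% to 0.992% with PCBP1 and 1.02% to 1.12% with PCBP2 knocked down, so every Day 2 library lay above every Day 0 library. A few abundant members weigh heavily in this share. The listed nuclear-retained lincRNAs, Malat1 and Neat1 among them, summed to 1140 to 1410 CPM in the Day 0 controls. At Day 2 that sum was 6650 to 7990 CPM in the control. It also holds listed genes that are not members, Firre and Kcnq1ot1 among them. At Day 0 most of it was Xist (803 to 1014 CPM), which fell, and at Day 2 most was Malat1 and Neat1. Their values are given below. The share of all reads without Malat1 and Neat1 was not computed. The rise of that share may rest on these genes and is not shown for the class. In bulk RNA, fewer cells of a type and less RNA per cell cannot be told apart.

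The steepest rises took lincRNAs from near 0 to well above 1 CPM. D630024D03Rik (ENSMUSG00000085772), a lincRNA of 4 exons at chr11:31790113-31824524 on the minus strand, was at 0.0383, 0.0165 and 0.0563 CPM in the control libraries of Day 0 (in the order SCR-1, SCR-2, LUC-1) and at 45.2, 51.2 and 61.6 at Day 2. Its log2 change was 10.38 (SE 0.31, adjusted p = 1.5e-19, edgeR), with 9.36 when PCBP1 was knocked down and 10.31 when PCBP2 was. Every Day 2 library lay above every Day 0 library. It lies 47687 bases from Cpeb4, a translational regulator, in divergent orientation, and Cpeb4 itself rose by 7.43.

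Bloodlinc (ENSMUSG00000087330), an erythroid enhancer-derived lincRNA, lies at chr11:102375549-102377020 on the minus strand, 9346 bases from Slc4a1, the gene of the red cell anion exchanger band 3. It was at 0.134, 0.099 and 0.225 CPM in the control libraries of Day 0 and at 59.6, 75.9 and 107 at Day 2, with the LUC-1 library highest on both days. The change was 9.04 (SE 0.30, adjusted p = 8.6e-17, edgeR) and the groups did not overlap. Slc4a1 rose by 6.41.

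The other members with the largest rises in the control were less studied loci. They were 1810053B23Rik (log2 change 10.12, SE 0.38), Gm11274 (9.54, SE 0.72), Gm31925 (9.38, SE 0.39), Gm42743 (9.16, SE 0.17) and Gm26640 (8.99, SE 0.38). Gm31925 lies 13776 bases from Suco, which rose by 6.72. Gm42743 overlaps the histone gene Hist2h2bb on the same strand, and their reads cannot be told apart where they overlap. A group at 0 gives only a bound, with 3 counts over the group as the floor. On that basis Gm17216 was at least 183-fold higher at Day 2 in the control, though 96.1% of its 31-mers are shared. In the knockdowns Gm28723 was at least 453-fold higher with PCBP1 knocked down and Platr7 at least 847-fold higher with PCBP2 knocked down.

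**Figure D2:**
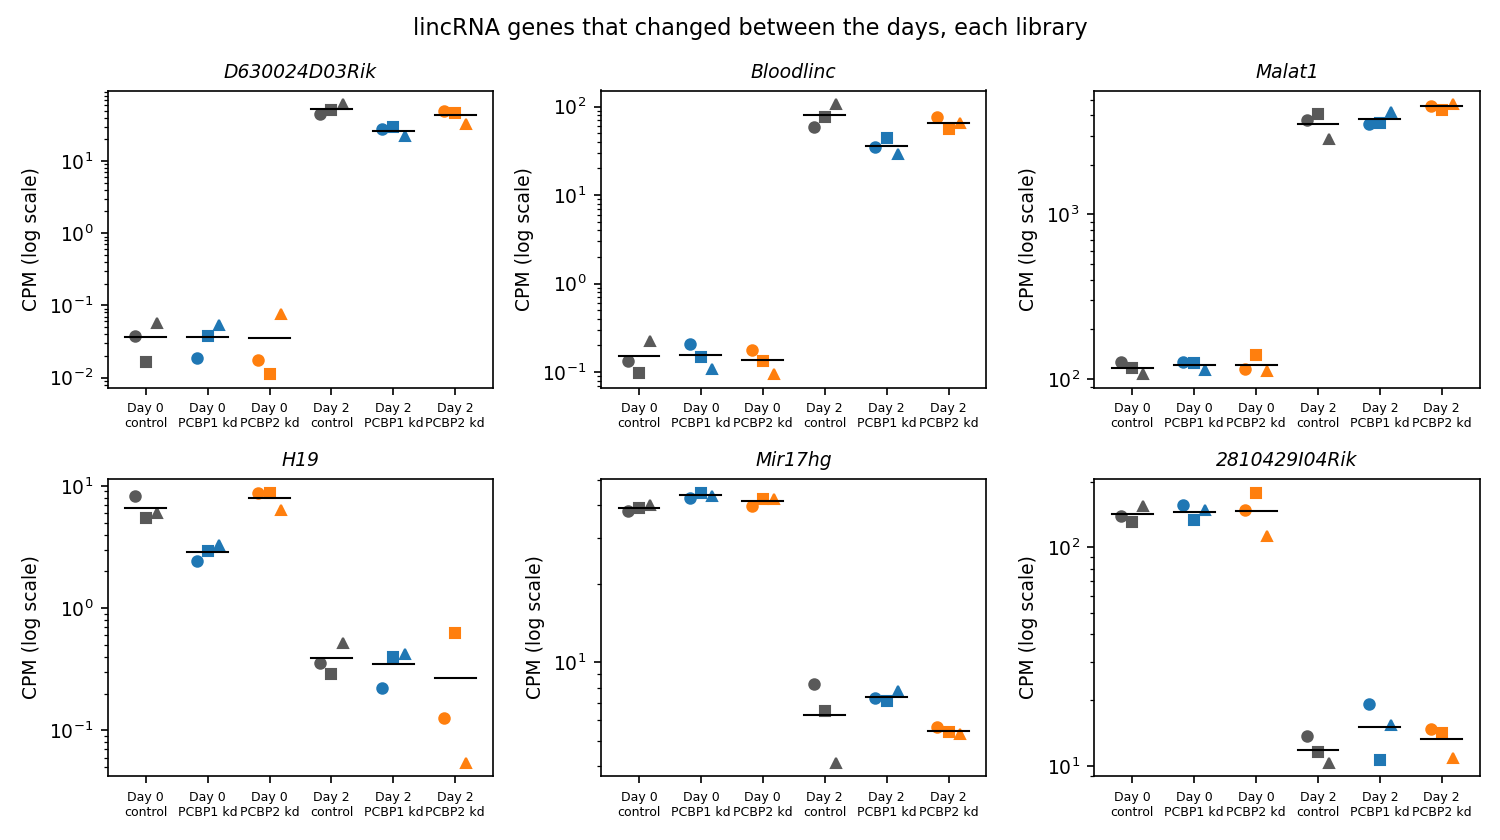
CPM per library (log axis) of 6 lincRNAs in the 6 groups, with bars at the group means; circles, squares and triangles are SCR-1 or SH1, SCR-2 or SH3, and LUC-1 or SH4. D630024D03Rik, Bloodlinc and Malat1 lie higher in every Day 2 library, and H19, Mir17hg and 2810429I04Rik lower.

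The falls were fewer and smaller. H19 (ENSMUSG00000000031), the imprinted maternally expressed RNA at chr7:142575529-142578143, was at 8.19, 5.51 and 6.01 CPM in the control libraries of Day 0 and at 0.355, 0.29 and 0.524 at Day 2. The change was −4.09 (SE 0.35, adjusted p = 9.2e-11, edgeR). It was the largest fall among called members with an average of at least 1 CPM and groups that did not overlap. Next by size was E230001N04Rik (−3.77, SE 0.44).

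2810429I04Rik (ENSMUSG00000097709), at chr13:3478230-3501393, was the most abundant of the strong fallers, at 139, 131 and 155 CPM in the control libraries of Day 0 and 13.7, 11.6 and 10.4 at Day 2. Its change was −3.57 (SE 0.19, adjusted p = 3.7e-13, edgeR). Crnde (ENSMUSG00000031736), first described in colorectal neoplasia, went from 4.06, 4.34 and 3.04 to 0.66, 0.29 and 0.291 CPM. Its change was −3.18 (SE 0.29, adjusted p = 2.8e-10, edgeR). Gm26869 (−3.35), BC002059 (−3.15), Gm43634 (−3.10) and Gm14230 (−3.01) also fell. Gm14230 lies 115 bases from Tgif2, a homeobox repressor of TGF-beta signalling, in divergent orientation, and Tgif2 fell by 6.51. The groups did not overlap for any of these 8.

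Of the nuclear-retained lincRNAs on the list, all members but Xist rose, and Malat1 and Neat1 were among the most abundant members at Day 2. Malat1, an abundant RNA of nuclear speckles at chr19:5795690-5802672, was at 126, 117 and 107 CPM in the control libraries of Day 0 and at 3764, 4080 and 2858 at Day 2. Neat1, the scaffold of paraspeckles, lies at chr19:5824708-5845478 and went from 124, 118 and 78.6 to 3318, 3187 and 3169 CPM. The log2 changes were 4.93 (SE 0.14, adjusted p = 3.6e-20, edgeR) for Malat1 and 4.92 (SE 0.16, adjusted p = 1e-17) for Neat1, and both kept direction and call on library totals, at 3.31 and 3.28. Of the 8 listed nuclear-retained lincRNAs 4 were members, and 3 rose (Malat1, Neat1 and Meg3) while Xist fell. The median of the 4 was 3.97, beside −0.05 over all genes.

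The X-inactivation lincRNAs fell. Xist, which coats the inactive X chromosome, was at 1014, 933 and 803 CPM in the control libraries of Day 0 and at 585, 553 and 426 at Day 2. Its change was −0.81 (SE 0.12, adjusted p = 8.6e-07, edgeR). Jpx, an activator of Xist, changed by −0.70 (SE 0.22, adjusted p = 0.0045), and Ftx, another positive regulator of Xist, by −1.90 (SE 0.14, adjusted p = 7.3e-12). All 3 members of the 6 listed X-linked lincRNAs were thus lower in the control, and Jpx did not pass the test in the PCBP1 knockdown (−0.42, adjusted p = 0.067). The presence of Xist beside Y-linked transcripts, summed to 63 to 71.7 CPM at Day 0 and 126 to 158 at Day 2, shows RNA of both sexes in these libraries. The 4 Y-linked genes rose in the control, and the part of the sex mix in the Xist result was not tested.

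The imprinted members moved in different directions. Meg3 (ENSMUSG00000021268), the maternally expressed RNA of the Dlk1-Dio3 domain at chr12:109541001-109571726, was at 1.19, 1.15 and 0.863 CPM in the control libraries of Day 0 and at 8.33, 9.73 and 8.03 at Day 2. The change was 3.02 (SE 0.20, adjusted p = 6.8e-13, edgeR). Meg3 shares 44.7% of its 31-mers with the annotated gene Gm26906. Rian, from the same domain, changed by −1.64 (SE 0.45, adjusted p = 0.0018). With H19, 1 of the 3 imprinted members rose and 2 fell, of 7 listed.

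Among the microRNA hosts, Mir142hg rose and Mir17hg fell. Mir142hg (ENSMUSG00000084796), host of the blood-specific miR-142 at chr11:87755577-87757270, was at 11.1, 10.9 and 8.45 CPM in the control libraries of Day 0 and at 68.6, 84 and 74.7 at Day 2. Its log2 change was 2.90 (SE 0.13, adjusted p = 3.9e-16, edgeR). Mir17hg (ENSMUSG00000089726), host of the growth-promoting miR-17-92 cluster at chr14:115042879-115046727, went from 37.8, 39 and 40 to 8.27, 6.49 and 4.13 CPM. The change was −2.62 (SE 0.15, adjusted p = 2.9e-14), and neither host's groups overlapped. On library totals Mir142hg stayed higher (1.26) and Mir17hg lower (−4.24).

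Dleu2, host of miR-16 in the sequences shown above, was at 29.2, 26.8 and 24.6 CPM in the control libraries of Day 0 and 58.5, 48.3 and 45.6 at Day 2. Its change was 0.92 (SE 0.12, adjusted p = 2.7e-07, edgeR), which turned to −0.71 on library totals. Dleu2 overlaps Trim13 on the opposite strand, and since no source states that reads were counted by strand, the 2 genes' reads cannot be told apart there. Of the 13 names listed as microRNA hosts 4 were members. Besides Mir142hg, Mir17hg and Dleu2 these include Mirt1, which contains no annotated hairpin here and changed by 1.28 (SE 0.30, adjusted p = 0.00043, edgeR), which turned to −0.33 on library totals.

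Among lincRNAs studied in blood cells or in cell cycle exit, Trp53cor1 had the largest rise. Of 15 listed names, of which Cyrano and 1700020I14Rik stand for 1 gene, 11 were members, and 7 were higher and 3 lower in the control, beside 65.9% and 13.6% of all tested lincRNAs. Of the risers Dleu2 and 1700020I14Rik turned on library totals. There were 7 higher and 4 lower when PCBP1 was knocked down and 7 and 2 when PCBP2 was. Trp53cor1 (ENSMUSG00000085912, lincRNA-p21), at chr17:29057430-29079179 and 11797 bases from Cdkn1a, the gene of the cell cycle inhibitor p21, was at 1.32, 1.09 and 0.901 CPM in the control libraries of Day 0 and at 145, 152 and 144 at Day 2. The change was 7.06 (SE 0.20, adjusted p = 3.1e-19, edgeR), and Cdkn1a rose by 6.40. Trp53cor1 shares 48.7% of its 31-mers with other genes.

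Pvt1, next to Myc, changed by 2.34 (SE 0.13), and Lockd, transcribed from an enhancer of the cell cycle inhibitor Cdkn1b, by 2.21 (SE 0.17). Lncpint, a p53-induced lincRNA, changed by 4.23 (SE 0.71) from no more than 0.0495 CPM in the control libraries of Day 0. 1700020I14Rik (Cyrano), which directs the decay of miR-7, changed by 1.53 (SE 0.13), but this turned to −0.11 on library totals. Epb41l4aos (−2.26, SE 0.21) and Dancr (−0.47, SE 0.15, adjusted p = 0.0068, edgeR) fell. When only lincRNA-type transcripts were counted Dancr was at 0.19.

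Redrum, an erythroid lincRNA reported to act in red cell maturation, was not on this list and is named after its values were seen. It was at 33.7, 37 and 37.9 CPM in the control libraries of Day 0 and 32.8, 31.3 and 57.4 at Day 2. The change was 0.16 (SE 0.16, adjusted p = 0.36, edgeR) and −1.49 on library totals, so its direction depends on the scale.

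Of the most abundant members, Gm29562 (4.67, SE 0.10), 1810058I24Rik (4.34, SE 0.12), 1810026B05Rik (4.77, SE 0.10), AA465934 (5.21, SE 0.16) and AI662270 (1.73, SE 0.11) rose and Gm26619 (−1.30, SE 0.20) fell. AI662270 was at 0.09 and not called on library totals. AA465934 was at 5.24, 5.06 and 5.61 CPM in the control libraries of Day 0 and 188, 187 and 213 at Day 2. Gm42418 stood at 2372, 2803 and 4279 CPM and then at 4385, 4260 and 14073, with LUC-1 highest on both days. Its change of 1.26 (SE 0.50, adjusted p = 0.034, edgeR) turned to −0.41 on library totals, and leaving out any one of 6 libraries ended the call.

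At Day 0 few lincRNAs differed between knockdown and control. The PCBP1 knockdown lowered 2 members and raised none, where 0.857% of all genes were called lower and 0.0343% higher. An unadjusted p under 0.05 was reached by 39 of the 762 tested members. DESeq2 called 4 members, where it called 102 of all 17500 genes higher and 329 lower. With the Day 0 libraries fitted alone, 248 of 15782 genes were called higher and 863 lower. More members were also called then than in the main fit. The PCBP2 knockdown gave no call in either direction, where 0% and 0.0229% of all genes were called higher and lower, with 20 members at an unadjusted p under 0.05 and none called by DESeq2.

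The members called were H19 and Gm43634. H19 was at 8.19, 5.51 and 6.01 CPM in the control libraries of Day 0, at 2.41, 2.96 and 3.26 with PCBP1 knocked down and at 8.83, 8.78 and 6.41 with PCBP2 knocked down. The PCBP1 knockdown libraries all lay below the 6 others. The log2 difference from control was −1.19 (SE 0.24, adjusted p = 0.013, edgeR). The call was lost without SCR-1 or without SH1, where the adjusted p reached 0.149. A correction for GC content ended both calls, at an adjusted p of 0.0694 for H19 and 0.118 for Gm43634, and left 21 of all genes lower in place of 150. Between the knockdowns the difference was 1.48 (SE 0.23, adjusted p = 0.0033), higher with PCBP2 knocked down.

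Gm43634 was at 5.22, 4.72 and 4.43 CPM in the controls, at 2.04, 3.07 and 2.07 with PCBP1 knocked down and at 5.2, 4.88 and 5.51 with PCBP2 knocked down. The difference from control was −1.002 (SE 0.188, adjusted p = 0.0082, edgeR), and it was lost without any one of SCR-1, SCR-2, SH1 or SH4, with an adjusted p of up to 0.123. It shares 98.8% of its 31-mers with Cracr2a, a calcium-channel regulator gene that it overlaps on the same strand and that fell by 0.87, so the 2 cannot be separated. These were also the only 2 members that differed between the knockdowns at Day 0, both higher with PCBP2 knocked down (0.24% of all genes higher, 0.0171% lower). That count of 2 went to 0 without the SH1 library of the PCBP1 knockdown and to 1 without SH4. The count against control went to 0 without SCR-1 or SH1 and to 1 without SCR-2 or SH4.

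At Day 2 the PCBP1 knockdown changed more lincRNAs. In it, 24 of the 762 tested members were higher and 34 lower (3.15% and 4.46%), where 5.45% and 7.51% of all genes were called. An unadjusted p under 0.05 was reached by 160, and 160 (21%) had groups that did not overlap, against 22.1% of all genes. Among genes with an average log2 CPM under 0, 1.11% of lincRNAs were higher and 1.33% lower, beside 1.57% and 1.37% of protein-coding genes. From 0 to 2 these were 5.88% and 5.35% beside 3.51% and 3.76%, and from 2 upwards 6.5% and 14.6% beside 8.25% and 11.7%. The median lincRNA difference was 0.04, beside 0.02 over all genes. Without the SH4 library of the PCBP1 knockdown 34 members were called, 31 of them among the 58. Of all genes 569 were then higher and 963 lower. With the Day 2 libraries fitted alone 32 members were called, where 291 of 15129 genes were higher and 641 lower. On library totals the split moved to 80 higher and 22 lower, where all genes moved to 3459 higher and 628 lower with a shift of 0.231 in their median, and all 24 risers and 22 of the 34 fallers were still called.

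**Figure D3:**
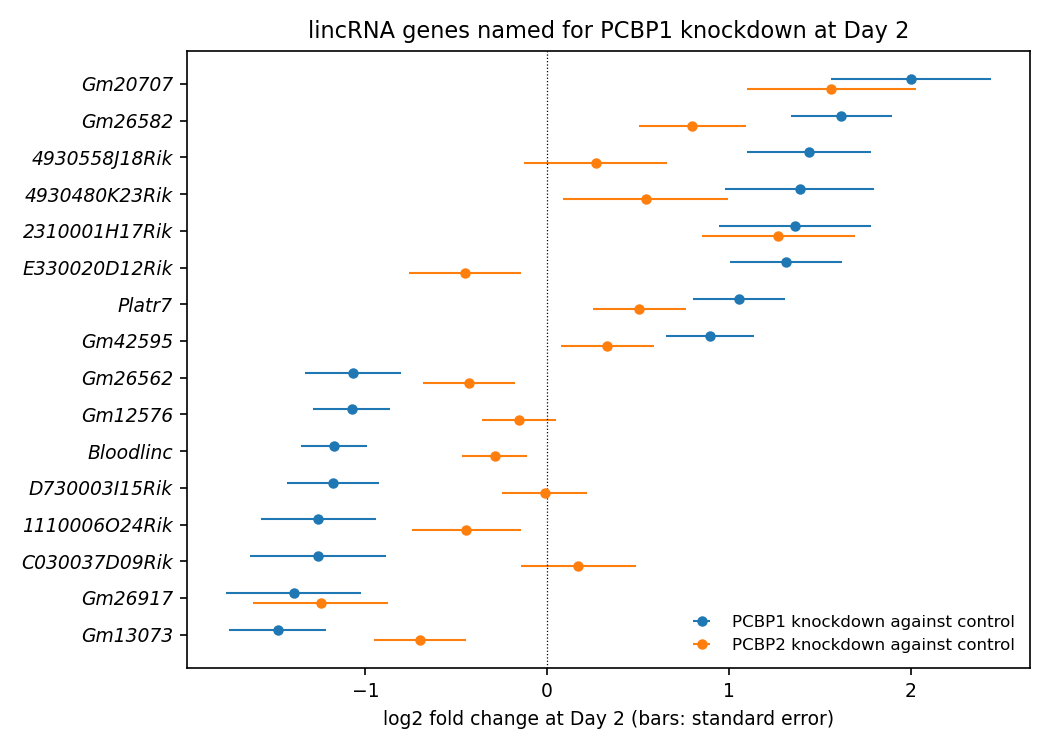
Log2 difference from control at Day 2 (horizontal axis, points with SE bars) of the 16 named lincRNAs in the PCBP1 and the PCBP2 knockdown. The PCBP1 values run from −1.48 for Gm13073 to 2.00 for Gm20707; both knockdowns are set against the same 3 control libraries.

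Bloodlinc was among the lincRNAs that fell. At Day 2 it was at 59.6, 75.9 and 107 CPM in the control, at 34.9, 43.7 and 29 with PCBP1 knocked down and at 76.6, 56.3 and 65.5 with PCBP2 knocked down. The difference from control was −1.17 (SE 0.18, adjusted p = 0.00028, edgeR) and the groups did not overlap. Its neighbour Slc4a1 fell by 0.52 (adjusted p = 0.0033). D630024D03Rik, the steepest riser, fell as well, from 45.2, 51.2 and 61.6 CPM in the control to 27.8, 29.3 and 22.3, a difference of −0.99 (SE 0.16, adjusted p = 0.00025). Of the 9 tested red cell maturation markers 4 were lower in this comparison. Their sum was 277000 to 399000 CPM in the controls and 225000 to 230000 with PCBP1 knocked down, and the part of maturation stage in these falls was not tested.

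2700038G22Rik (ENSMUSG00000097180), a spliced lincRNA at chr5:23850597-23855038 that lies 6436 bases from the mitochondrial import gene Tomm7, had the smallest p of all members. It was at 27.7, 28.1 and 27.2 CPM in the control, at 13.8, 13.2 and 14 with PCBP1 knocked down and at 27.7, 21.4 and 24.2 with PCBP2 knocked down. The difference was −1.02 (SE 0.13, adjusted p = 1.6e-05, edgeR). Meg3 went from 8.33, 9.73 and 8.03 CPM to 3.95, 5.73 and 3.95, a difference of −0.94 (SE 0.19, adjusted p = 0.0017). For both genes all 3 PCBP1 knockdown libraries lay below every control library.

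Gm13073 (ENSMUSG00000084807), at chr4:149780024-149780714, showed the largest fall among called members with an average of at least 1 CPM and groups that did not overlap. It was at 18.8, 18.5 and 14.4 CPM in the control and 5.4, 4.59 and 8.47 with PCBP1 knocked down, a difference of −1.48 (SE 0.26, adjusted p = 0.00078, edgeR). It lies 5747 bases from Slc25a33, a mitochondrial pyrimidine carrier gene on the same strand, which fell by 0.53 (adjusted p = 0.014). D730003I15Rik (−1.18, SE 0.25), Gm12576 (−1.07, SE 0.21) and Gm26562 (−1.07, SE 0.27) fell too, and no single library ended these calls. D730003I15Rik lies 6415 bases from the stress-response gene Atf3, which fell by 0.79 (adjusted p = 0.0073).

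Other falls were less secure. 1110006O24Rik (−1.26, SE 0.32, adjusted p = 0.01, edgeR) lies 92 bases from Rab35, a gene of endosomal recycling, which fell by 0.58, and its call was lost without LUC-1 or SH4. C030037D09Rik (−1.26, SE 0.37, adjusted p = 0.026) lies 132 bases from Msi2, an RNA-binding protein of progenitors, which was at 0.13 (adjusted p = 0.47). Its call was lost without any one of 5 libraries and on library totals. Mir142hg fell from 68.6, 84 and 74.7 CPM to 47.7, 54.6 and 59.1 (−0.49, SE 0.12, adjusted p = 0.0079), and Neat1 from 3318, 3187 and 3169 to 2024, 2819 and 2404 (−0.42, SE 0.14). Neither call held on library totals, and leaving out 1 library ended the Neat1 call in 14 cases, with an adjusted p of up to 0.234, and the Mir142hg call without SCR-2 or SH1. Gm26917, an rRNA-overlapping locus, was at 24.3, 39.5 and 75.2 CPM against 20.7, 16.1 and 16 (−1.39, SE 0.37), and its call was lost without LUC-1, SH3 or SH4.

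Among the risers, Gm20707 (ENSMUSG00000093594) was at 0.254, 0.387 and 0.233 CPM in the control and at 1.84, 0.737 and 1 with PCBP1 knocked down. The difference was 2.00 (SE 0.44, adjusted p = 0.0036, edgeR). Gm20707 overlaps Zfp984 on the same strand, and 15.5% of its 31-mers are shared, mainly with that gene. Zfp984 was at −1.29 (adjusted p = 0.46, edgeR), and reads of the 2 genes cannot be told apart where they overlap. Gm26582 (1.62, SE 0.28, adjusted p = 0.00043), 4930558J18Rik (1.44, SE 0.34, adjusted p = 0.006) and the pluripotency-associated transcript Platr7 (1.06, SE 0.25, adjusted p = 0.0093) were called with every library left out in turn. Gm26582 shares 68.5% of its 31-mers with other genes. Platr7 was at 7.77, 11.1 and 8.09 CPM in the control and 14.1, 21 and 21 in the knockdown.

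E330020D12Rik was the most abundant of these, at 131, 97.6 and 72.7 CPM in the control, at 163, 311 and 274 with PCBP1 knocked down and at 86.5, 94.9 and 38.9 with PCBP2 knocked down. The difference was 1.31 (SE 0.31, adjusted p = 0.013, edgeR), and without LUC-1 the adjusted p was 0.0647. The calls of 4930480K23Rik (1.39), 2310001H17Rik (1.36) and Gm42595 (0.89) were each lost without LUC-1 or SH4. Ftx was at 4.47, 4.41 and 3.55 CPM against 6.12, 5.22 and 6.73 (0.54, SE 0.15, adjusted p = 0.021), and its adjusted p reached 0.118 when a library was left out. Lymphoid markers moved with this comparison. They summed to 12.3 to 18.1 CPM in the controls, 45.5 to 79.2 with PCBP1 knocked down and 22.8 to 26.7 with PCBP2 knocked down. Of the 6 listed, 3 were tested and 2 were higher with PCBP1 knocked down, while Rag1 and Cd3e were at or near 0. Their part in the lincRNA rises was not tested.

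The lists add little at Day 2. In the PCBP1 knockdown none of the 11 members studied in blood cells rose and 2 fell (Mir142hg and 2900097C17Rik), 2 of the 4 nuclear-retained members fell (Neat1 and Meg3), 1 of the 3 X-linked members rose (Ftx) and 1 of the 3 imprinted members fell (Meg3). The 2900097C17Rik call (−0.47, adjusted p = 0.049, edgeR) was lost on library totals and when any one of 17 libraries was left out.

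The PCBP2 knockdown changed 8 members at Day 2, with 6 higher and 2 lower, where 0.954% and 3.72% of all genes were called. An unadjusted p under 0.05 was reached by 89, and 126 (16.5%) had groups that did not overlap, against 18.5% of all genes. The median lincRNA difference was 0.15, beside −0.01 over all genes. DESeq2 called 19 members, where it called 320 of all genes higher and 1212 lower. Without the SH4 library of the PCBP2 knockdown 2 members were called, where 47 of all genes were higher and 401 lower. With the Day 2 libraries fitted alone none was called, where 5 of 15129 genes were higher and 61 lower. On library totals 26 were higher and 1 lower, where 974 of all genes were higher and 219 lower with a shift of 0.197 in their median.

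Gm43549 was at 383, 487 and 509 CPM in the control, at 401, 474 and 494 with PCBP1 knocked down and at 646, 666 and 822 with PCBP2 knocked down. The difference from control was 0.63 (SE 0.11, adjusted p = 0.0027, edgeR), but 93.2% of its 31-mers are shared, mainly with Gm47939. Gm37381 rose from 75.9, 104 and 87.7 CPM to 138, 127 and 139 (0.59, SE 0.12, adjusted p = 0.0082). Gm26617 (0.90), Gm30414 (0.60), 4930509G22Rik (0.58) and Gm20045 (0.53) rose as well, and each of these calls was lost without at least 1 library.

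The 2 members that fell were Gm15892 and 1810058I24Rik. Gm15892 was at 3.6, 3.15 and 3.43 CPM in the control, at 5.07, 3.18 and 3.58 with PCBP1 knocked down and at 1.59, 1.68 and 1.15 with PCBP2 knocked down (−1.20, SE 0.30, adjusted p = 0.019, edgeR). 1810058I24Rik, one of the 10 most abundant members, went from 660, 593 and 740 CPM to 570, 498 and 439 (−0.40, SE 0.10, adjusted p = 0.023). Without the SH4 library of the PCBP2 knockdown the adjusted p was 0.0921 for Gm15892 and 0.0678 for 1810058I24Rik, and the latter was 0.191 on library totals.

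**Figure D4:**
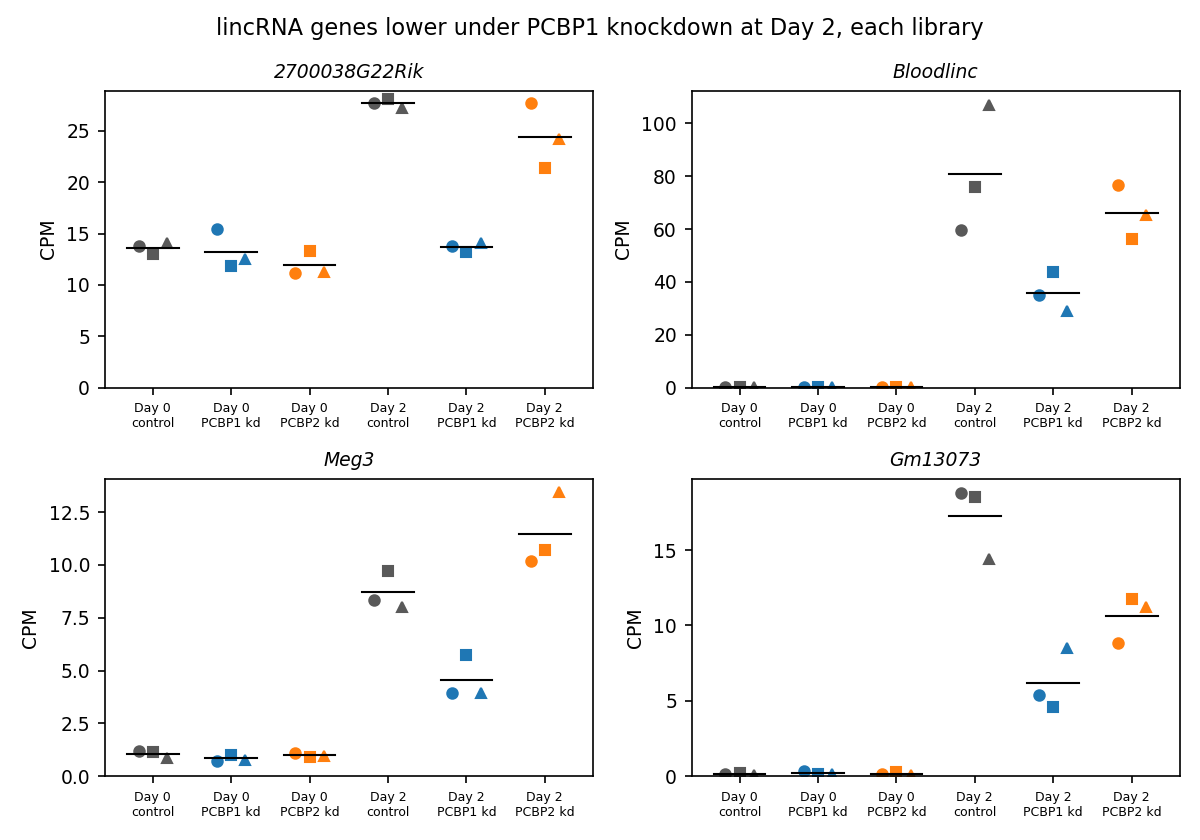
CPM per library (vertical axis) of 2700038G22Rik, Bloodlinc, Meg3 and Gm13073 in the 6 groups, with bars at the group means; circles, squares and triangles are SCR-1 or SH1, SCR-2 or SH3, and LUC-1 or SH4. At Day 2 all 3 PCBP1 knockdown libraries lie below all 3 controls for each gene, for example 13.2 to 14 against 27.2 to 28.1 CPM for 2700038G22Rik.

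Compared directly at Day 2, the knockdowns differed at 59 members. With PCBP2 rather than PCBP1 knocked down, 41 were higher and 18 lower (5.38% and 2.36%), where 4.83% and 7.5% of all genes were called. Meg3 was at 10.2, 10.7 and 13.4 CPM with PCBP2 knocked down against 3.95, 5.73 and 3.95 (1.34, SE 0.19, adjusted p = 0.00012, edgeR). Gm43661 (0.93), Bloodlinc (0.88, SE 0.18, adjusted p = 0.0042), 2700038G22Rik (0.83, adjusted p = 0.00023), D630024D03Rik (0.70, adjusted p = 0.0071) and Neat1 (0.47, adjusted p = 0.03) were higher too. Among the lower ones with an average log2 CPM of 0 or more and groups that did not overlap, E330020D12Rik was the largest (−1.77, SE 0.31, adjusted p = 0.0036, edgeR). Gm15892 came next (−1.42, SE 0.29, adjusted p = 0.0032).

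C030037D09Rik (1.43), D730003I15Rik (1.16), 4921513I03Rik (1.14), Gm42711 (1.13) and Gm12576 (0.92) were also higher with PCBP2 knocked down. 4930558J18Rik (−1.18), 9830132P13Rik (−0.90), Gm26582 (−0.82), Etos1 (−0.70), F730311O21Rik (−0.69) and A430046D13Rik (−0.67) were lower. Leaving out any one of 9 libraries ended the call of Gm26582, and likewise of A430046D13Rik, with an adjusted p of up to 0.167 and 0.151. For Etos1 any one of 5 libraries did so, for 4930558J18Rik any one of 4 and for 4921513I03Rik any one of 3. C030037D09Rik lost its call without SH1 of the PCBP1 or SH4 of the PCBP2 knockdown, Gm42711 and F730311O21Rik without SH4 of the PCBP1 knockdown, and Gm12576 without SH1 of the PCBP2 knockdown. The count of 59 fell to 29 without the SH1 and to 31 without the SH4 library of the PCBP1 knockdown, and to 32 without SH1 and 25 without SH4 of the PCBP2 knockdown. In the same order, the calls over all genes were 343 higher and 709 lower, 471 and 1017, 464 and 1031, and 337 and 756. With the Day 2 libraries fitted alone the member count was 25, where 273 of 15129 genes were higher and 246 lower.

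The PCBP1 effect itself differed between the days for 1 member. 2700038G22Rik was at 13.8, 13 and 14.1 CPM in the control libraries of Day 0 and 15.4, 11.8 and 12.5 in the Day 0 PCBP1 knockdown, with a difference of −0.04 (SE 0.12). It went to 27.7, 28.1 and 27.2 CPM in the control at Day 2 and stayed at 13.8, 13.2 and 14 in the knockdown. Its change from Day 0 to Day 2 was 1.02 (SE 0.12, adjusted p = 3.2e-08, edgeR) in the control and 0.05 (SE 0.12, adjusted p = 0.74) in the PCBP1 knockdown, and the control's rise turned to −0.61 on library totals. The change of the knockdown effect was −0.98 (SE 0.17, adjusted p = 0.011), where 0.269% of all genes were called lower and 0.131% higher (0.4% in all). Without the SH1 library of the Day 0 PCBP1 knockdown its adjusted p was 0.0545. Bloodlinc (−1.21, SE 0.60, adjusted p = 0.39) did not pass this test.

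An unadjusted p under 0.05 for this change was reached by 78 members. DESeq2 called 16 members, where it called 248 of all 17500 genes higher and 345 lower. The count of 1 went to 0 without the SH1 library of the Day 0 PCBP1 knockdown. It went to 3 without SCR-1, 2 without SCR-2 and 3 without LUC-1 of Day 2, 5 without SH3 of the Day 2 PCBP1 knockdown and 3 without SH4 of the Day 2 PCBP2 knockdown. For PCBP2 no member was called in either direction, where 0% of all genes were, with 33 at an unadjusted p under 0.05 and 1 called by DESeq2. Of all genes DESeq2 called 13 higher and 68 lower for that change.

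Splicing of the lincRNAs was read from the authors' deposited tables of local splicing variations, each the set of junctions that leave or enter an exon. In the authors' deposited table of the PCBP1 knockdown at Day 0, 5 of 285 variations in 79 lincRNA members (1.75%) had a junction with a posterior probability of at least 0.80 of a change of at least 20 percentage points in use (percent spliced in, PSI). Over all variations in that table the share was 0.12%. The authors' deposited tables gave 2 of 296 (0.676%, against 0.0467%) for the PCBP2 knockdown at Day 0, 6 of 306 (1.96%, against 0.387%) for PCBP1 at Day 2 and 5 of 322 (1.55%, against 0.212%) for PCBP2 at Day 2. At a posterior of 0.95 these counts were 1, 0, 2 and 3. The tables give no replicate error or read depth, and in genes as lowly expressed as these the depth behind a PSI is unknown.

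In the authors' deposited table for Day 0, Gm20707, which rose with PCBP1 knocked down at Day 2, had a junction used at 9.5% in the control and 49.8% in the PCBP1 knockdown (posterior 0.994). A junction of BC002059 went from 55.5% to 80.1% with PCBP1 and to 79.6% with PCBP2 knocked down in the authors' deposited tables, with posteriors of 0.82 and 0.801 and the same control libraries. At Day 2, the authors' deposited table put a junction into the exon at chr5:23852698-23853040 of 2700038G22Rik at 42.3% in the control and 77% in the PCBP1 knockdown (posterior 0.966). The other end of that junction is at 23850130, outside the annotated span of the gene given above. 2700038G22Rik is also the member with the lowest p for its level in the same comparison, where reads were counted on annotated transcripts.

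Dleu2 appears in both Day 2 comparisons at different exons. In the authors' deposited tables a junction leaving the exon at chr14:61632299-61632483, near the miR-16 sequence shown above, went from 57.2% to 17.7% with PCBP1 knocked down (posterior 0.998). A junction into the terminal exon at chr14:61602839-61603806 went from 41.3% to 4.9% with PCBP2 knocked down (posterior 0.971). The total level of Dleu2 did not pass the test in either (0.21 and −0.11). For the PCBP2 knockdown at Day 2 the authors' deposited table also listed Pvt1, from 62.7% to 23.7% (posterior 0.99), Gm17586, from 15.5% to 51.7% (posterior 0.962), and Neat1, from 92% to 58.2% (posterior 0.894). The Neat1 junction reaches chr19:5845588, outside the annotated span of the gene given above, and the far end of its exon is not recorded.

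By position, 172 of the 791 members overlap a protein-coding gene in the annotation, 149 on the opposite and 23 on the same strand. Of the rest, 231 lie in divergent orientation to the nearest protein-coding gene (95 within 1000 bases), 113 are convergent and 275 lie on the same strand, and the median gap to that gene is 5234 bases. From Day 0 to Day 2 in the control, the log2 changes of lincRNA and neighbour had a Spearman rho of 0.416 over the 623 pairs with both genes tested, overlapping pairs included, with 57.6% of the same sign. For the 83 divergent pairs within 1000 bases rho was 0.541 (65.1% of the same sign), and for the 243 pairs over 10 kb apart 0.238 (53.9%). For the PCBP1 knockdown at Day 2 the 3 values were 0.155, 0.263 and 0.0481. These are descriptions across genes, which share libraries and scaling and are not independent replicates.

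**Figure D5:**
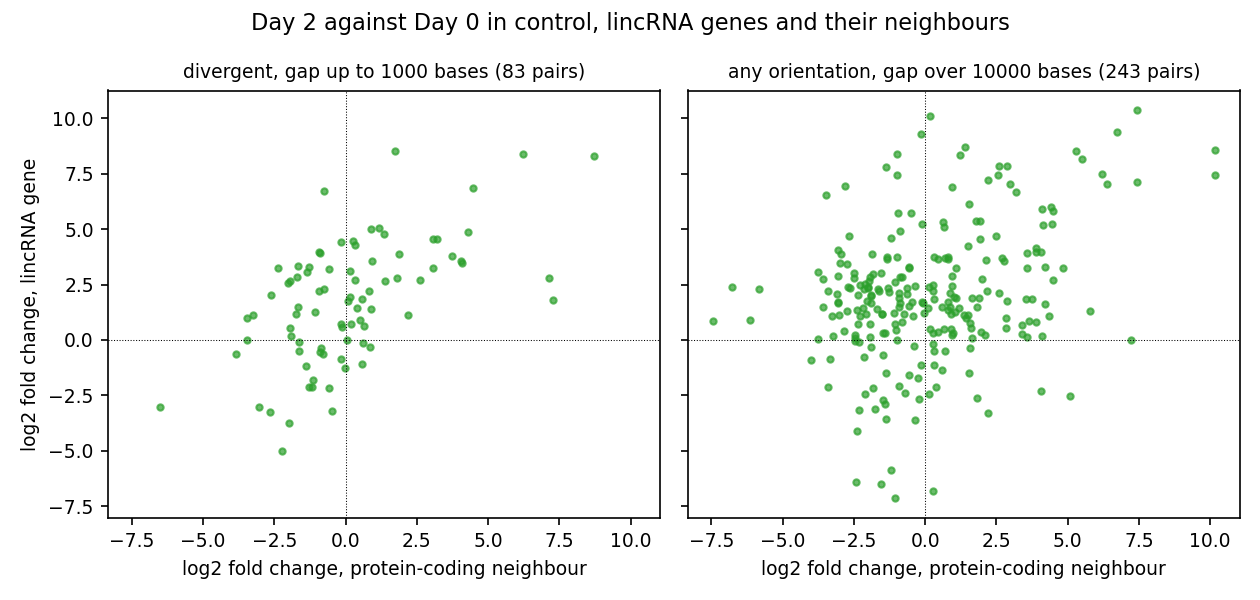
Log2 change from Day 0 to Day 2 in the control of each lincRNA (vertical axis) and its nearest protein-coding gene (horizontal axis). Shown are 83 divergent pairs within 1000 bases and 243 pairs over 10 kb apart in any orientation. The ranks of the 2 changes go together more closely in the near divergent pairs, with rho of 0.541 against 0.238.

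Promoter sequence was available for 346 members in the RefSeq table (GRCm38.p6), as 425 windows from 250 bases before to 50 after a start. Windows were searched on both strands for AGATAA, a site bound by GATA factors, and for CCNCNCCC, which fits KLF factors. AGATAA was in 9.18% of the members' windows, 11.4% of the 255 windows of members that rose in the control and 9.52% of the 63 of members that fell, against 11.2% of all 32851 promoters. CCNCNCCC was in 54.6%, 52.5% and 58.7%, against 49.5%. The promoters of 3 members are printed with CCNCNCCC matches in capitals, for the steepest riser, the member whose PCBP1 effect differed between the days, and a faller. The D630024D03Rik window is at chr11:31824498-31824797 (minus strand), that of 2700038G22Rik at chr5:23850347-23850646 (plus strand) and that of Crnde at chr8:92356071-92356370 (minus strand), with 0, 1 and 3 matches.
D630024D03Rik: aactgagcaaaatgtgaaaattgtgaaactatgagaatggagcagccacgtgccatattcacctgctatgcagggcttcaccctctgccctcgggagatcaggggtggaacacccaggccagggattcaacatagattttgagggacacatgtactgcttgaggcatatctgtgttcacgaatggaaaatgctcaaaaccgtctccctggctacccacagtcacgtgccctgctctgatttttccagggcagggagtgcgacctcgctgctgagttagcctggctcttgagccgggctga
2700038G22Rik: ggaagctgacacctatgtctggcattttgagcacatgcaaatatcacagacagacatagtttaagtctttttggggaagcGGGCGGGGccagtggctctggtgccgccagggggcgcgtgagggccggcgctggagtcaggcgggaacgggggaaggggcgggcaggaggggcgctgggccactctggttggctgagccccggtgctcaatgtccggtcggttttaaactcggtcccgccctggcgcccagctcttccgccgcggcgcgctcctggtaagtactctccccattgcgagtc
Crnde: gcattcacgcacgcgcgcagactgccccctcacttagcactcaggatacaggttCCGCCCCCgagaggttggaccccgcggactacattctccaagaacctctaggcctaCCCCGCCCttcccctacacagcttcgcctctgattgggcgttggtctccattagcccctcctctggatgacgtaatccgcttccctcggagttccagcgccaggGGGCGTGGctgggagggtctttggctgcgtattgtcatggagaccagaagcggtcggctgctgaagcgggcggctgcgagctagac

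In structure the members were short and had few exons. The main transcript had a median length of 1527 bases and 2 exons, against 2590 bases and 8 exons in tested protein-coding genes, and 96 members had a single exon. Median GC content was 46.6%, against 50.2%, and the triplet CCC, counted with overlaps on the transcript strand, occurred 14.7 times per kb, against 17.2. The 34 members that fell with PCBP1 knocked down at Day 2 had medians of 49.9% GC, 17.8 CCC per kb and 1034 bases. The 24 that rose had 44.1%, 13.9 and 1990, and those not called 46.5%, 14.7 and 1539. After a correction for GC content in every library, 51 members were called in that comparison, 16 higher and 35 lower, where all genes went from 953 higher and 1315 lower to 657 and 1073.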

How the data were processed

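RNA was measured in 18 libraries of transduced mouse fetal liver progenitors, 6 groups of 3. Per the submitters' processing notes, FastQC 0.11.9, Trim Galore 1.46.0, STAR 2.5.3a, SAMtools 1.9, Salmon 0.11.3 and the build GRCm38 were used; strandedness and the splicing tool are not given in the sources used here. For each library the authors deposited a Salmon table of transcripts, giving an estimated count of reads and a TPM for each. They also deposited tables of junction use, as PSI fractions with posterior probabilities, on pooled control and knockdown libraries.

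Of 111706 transcripts, 110403 matched GENCODE M21; the 1303 others held 0.275% to 0.579% of reads and were not used. Estimated counts were summed to genes and rounded. One model of 6 groups was fitted to 17500 genes (edgeR 4.0.16, TMM scaling, quasi-likelihood test, 12 residual degrees of freedom, common dispersion 0.0169, R 4.3.3), with Benjamini-Hochberg adjustment over all of them and calls at an adjusted p under 0.05. CPM are per TMM-scaled library size, and log2 values and standard errors come from the fit, with n = 3 per group. "Rose" and "fell" are kept for called genes. Counts at an unadjusted p under 0.05 are given for members only, as no such count was made over all genes. The scripts were tested on simulated data.

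The members and lists were chosen with earlier results of these data known. Named genes are up to 8 called members each way per comparison by size of change, among those whose average log2 CPM is 0 or more and whose groups do not overlap (filled to 4 by the smallest p), members of the lists, the 10 most abundant and the nearest protein-coding genes. The lists were X-linked, imprinted, microRNA-host, nuclear-retained and blood-cell lincRNAs, and rRNA-overlapping loci. Marker lists of other cells gave these sums in CPM: macrophage 20.7 to 30.4 at Day 0 and 10.2 to 16.1 at Day 2, megakaryocyte 233 to 296 and 618 to 783, neutrophil 733 to 881 and 389 to 582, mast cell 23.9 to 41 and 53.3 to 82.2, and hepatocyte 1.33 to 3.84 and 0.0968 to 0.421. A sum can hide a split. From Day 0 to Day 2 in the control, 1 tested macrophage marker rose and 6 fell, and 5 megakaryocyte markers rose and 0 fell. For neutrophils these were 2 and 4, for mast cells 1 and 3, and for hepatocytes 0 and 2. Alternatives were DESeq2 1.42.0, library totals, no filter, the membership filter on all genes, GC correction, lincRNA-type transcripts only, fits on 1 day or condition, a hairpin block and leaving out each library. Leaving out both LUC-1 libraries, and using only members with under 10% shared 31-mers, were chosen after seeing the data.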

Additional observations from a re-analysis of the deposited data

Results flagged for a closer look

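The effect of PCBP1 knockdown on 2700038G22Rik differed between the days by a test of the difference itself. The change of the effect from Day 0 to Day 2 was −0.98 on the log2 scale (SE 0.17, adjusted p = 0.011, edgeR). In the control all 3 Day 2 libraries (27.2 to 28.1 CPM) lay above all 3 Day 0 libraries (13 to 14.1), and in the PCBP1 knockdown the days overlapped (11.8 to 15.4 at Day 0, 13.2 to 14 at Day 2). With each library left out in turn the value ran from −1.05 to −0.86. The gene shares 15% of its 31-mers with other genes, and the part of that sharing in the difference was not tested.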

How the results depend on the processing

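The number of lincRNAs called in either direction from Day 0 to Day 2 stayed within 1.5 times under the alternatives run on all members, but on library totals its split went from 502 higher and 104 lower to 270 and 252 in the control. The knockdown counts moved more. Under DESeq2 the PCBP1 knockdown gave 4 calls at Day 0, the PCBP2 knockdown 19 at Day 2, the knockdowns against each other 4 at Day 0, and the change of effect 16 for PCBP1 and 1 for PCBP2. With no filter on low counts these were 5, 19, 5, 13 and 4, and PCBP2 at Day 0 gave 1. On library totals there were 102 for PCBP1 and 27 for PCBP2 at Day 2 and 9 for the change of the PCBP1 effect. With GC trends removed there were 0 for PCBP1 at Day 0, 5 for PCBP2 at Day 2 and 2 for the change of the PCBP1 effect. Fits on 1 day gave 6 for PCBP1 at Day 0, 32 for PCBP1 (30 of them among the 58) and 0 for PCBP2 at Day 2, and 25 between the knockdowns. Members with under 10% shared 31-mers gave 1, 5, 1 and 0 for PCBP1 at Day 0, PCBP2 at Day 2, the knockdowns at Day 0 and the change of the PCBP1 effect; this set is smaller. Splicing calls at a posterior of 0.95 were 1, 0, 2 and 3. The counts over all genes moved too. Of 17500 genes DESeq2 called 118 higher and 26 lower between the knockdowns at Day 0. Fits on 1 day called 248 higher and 863 lower of 15782 genes for PCBP1 at Day 0. At Day 2 they called 291 and 641 of 15129 for PCBP1, 5 and 61 for PCBP2, and 273 and 246 between the knockdowns. The causes of the other moves were not tested.

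Leaving out 1 library gave 584 to 616, 572 to 602 and 583 to 623 calls for Day 2 against Day 0 in the control, PCBP1 and PCBP2 groups. For knockdown against control it gave 0 to 3 (PCBP1) and 0 to 0 (PCBP2) at Day 0, and 34 to 66 and 2 to 10 at Day 2. Between the knockdowns it gave 0 to 2 and 25 to 65, and for the changes of effect 0 to 5 and 0 to 0. Without both LUC-1 libraries the PCBP1 knockdown at Day 2 gave 40 and the change of its effect 1. Deviations of libraries with the same hairpin label across days correlated at −0.009 to 0.042, and those with different labels at −0.044 to 0.035. Such values cannot tell whether a label stands for the same hairpin on both days. With the hairpin as a replicate block the calls were 586, 579 and 594 between the days, and 1 and 0 for the changes of effect.

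Of 193 named results under all alternatives (5134 values), 4866 kept direction and side of the threshold, 235 lost and 21 gained a call, and 12 reversed. On library totals these reversed from Day 0 to Day 2: in the control 1700020I14Rik (−0.108), 2700038G22Rik (−0.61), Dleu2 (−0.707), Mirt1 (−0.33) and Gm42418 (−0.41), in the PCBP1 knockdown Dleu2 (−0.358) and Mirt1 (−0.717), and in the PCBP2 knockdown 1700020I14Rik (−0.108), 2700038G22Rik (−0.396), Dleu2 (−0.793) and Mirt1 (−0.382). Counting only lincRNA-type transcripts turned Dancr in the control to 0.19. Depth limits the rarest members: 222 of 791 had under 20 reads in the library that ranked 3 for that gene.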
